A study of Homo sapiens with 12 samples.

Results

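The histone genes described here are the genes of the deposited table whose names begin with HIST1H to HIST4H, or with H2AF and a further letter, and whose counts summed to at least 10 over the 12 libraries. Of 58884 genes, 69 met this rule after 22 pseudogenes were left out by name. A further 14 histone genes fell below the count threshold, 4 of them at 0 counts in all 12 libraries. Since the summed count chose the members, their overall abundance is given as a description and was not tested. Just inside the threshold lay HIST1H4A and HIST1H2BI with 15 counts each and HIST1H3I with 14 counts. Just outside it lay HIST1H2BM with 8 counts, HIST1H4L with 6 counts, and H2AFB3, H2AFB1 and HIST1H1T with 5 counts each. By name, the 69 genes comprise 63 replication-dependent genes, of which 5 belong to linker histone H1, 16 to H2A, 17 to H2B, 13 to H3 and 12 to H4, and 6 genes of H2A variants. GENCODE 29 annotates 1 of the H2B genes, HIST2H2BD, as a transcribed pseudogene without coding sequence, which its name did not show. By GENCODE 29 on the GRCh38 assembly, 48 lie on chromosome 6, where the HIST1 genes form the major histone cluster, 14 on chromosome 1 and 2 on chromosome 12. In all, 50 of the 69 genes have only single-exon transcripts.

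DNA is wrapped around octamers of the core histones H2A, H2B, H3 and H4, and H1 binds the linker DNA between them. Replication-dependent histone genes are transcribed mainly in S phase, when new DNA has to be packaged, and their mRNAs end in a conserved stem-loop instead of a poly(A) tail. The stem-loop binding protein SLBP and the U7 snRNP direct cleavage behind that structure, and the mRNAs are degraded rapidly when DNA synthesis stops. Histone variants such as H2A.Z and macroH2A come from genes with introns, are made throughout the cell cycle and have mRNAs with poly(A) tails. The H2A.X gene H2AFX has no intron and can use either kind of 3′ end. Some replication-dependent genes can also give polyadenylated mRNA, in particular in cells that have stopped dividing.

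The study profiled total RNA from Huh-7 and HCC-LM3, liver cancer cell lines of human origin, in cells with METTL5 knocked out or intact. METTL5 is the methyltransferase that places N6-methyladenosine on 18S ribosomal RNA. The 4 groups are Huh-7 METTL5 KO, Huh-7 WT, HCC-LM3 METTL5 KO and HCC-LM3 WT, with 3 libraries each. KO cells had been infected with a METTL5 sgRNA and WT cells were untreated. No group received a control guide, and the labels do not say whether the KO cells are 1 clone, so loss of METTL5 cannot be told apart from guide treatment or from a clone's own features. RNA had been extracted with TRIzol, and 1 µg entered library preparation for an Illumina NovaSeq. Whether poly(A) RNA was selected or ribosomal RNA removed is not given in the sources used here. Nothing says that replicates are separate cultures, and p-values therefore measure only how far these libraries scatter, which may be technical.

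METTL5 had 0 counts in all 6 KO libraries, against 237, 258 and 169 counts in the Huh-7 WT libraries and 268, 327 and 325 counts in the HCC-LM3 WT libraries. Libraries held 17495280 to 26415554 counts. Scaling by the trimmed mean of M values (TMM) gave factors of 0.491 to 0.51 for Huh-7 KO, 1.06 to 1.1 for Huh-7 WT, 1.27 to 1.31 for HCC-LM3 KO and 1.33 to 1.51 for HCC-LM3 WT. HCC-LM3 WT replicate 1 stood apart from the rest of its group, with a chi-square per gene of 34.9 and 28.8 to the other libraries, which differed from each other by 4.01. The 12 hepatocyte markers summed to 20257 to 20898 CPM (counts scaled to library size) in Huh-7 KO and 14238 to 15236 CPM in Huh-7 WT, but to 32.6 to 39.9 CPM in HCC-LM3 KO and 26.8 to 30.9 CPM in HCC-LM3 WT. In HCC-LM3, APOB, APOH, TTR and FOXA2 were at 0 in both groups, so the defining markers of hepatocytes were largely absent from that line.

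The sequences that define this gene class are the 3′ stem-loop and the promoter elements, and a few are shown as a description. Their relation to the KO and line differences below was not tested. The stem-loop was searched in GENCODE 29 transcripts (GRCh38) as GG, any 3 bases, TT, any base, T, any base, A, any 3 bases and CC, with at least 5 of its 6 stem positions paired. It was found in 32 of the 63 replication-dependent genes. Of the 36 replication-dependent genes whose annotated transcript runs more than 60 bases beyond the coding sequence, 32 had it. None of those with a shorter model did, but such models hold little or no sequence past the coding part where it could be found. The search therefore says nothing about those genes, HIST1H3B, HIST1H2BK and HIST1H1C among them. Among all 19922 protein-coding genes, 343 (1.72%) held a match. Among the 6 variant genes only H2AFX did. The capitals below mark the 4-base loop, and the lower-case bases on either side pair with each other.
HIST2H2AA4, HIST1H2AC, HIST1H2BG and HIST2H2BE: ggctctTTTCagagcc
HIST1H4H and HIST1H4E: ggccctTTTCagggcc
HIST2H4A: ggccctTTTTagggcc
HIST1H2BD: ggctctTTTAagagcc
H2AFX: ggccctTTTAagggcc

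The first of these sequences was the most common and occurred in 17 members, and 7 distinct sequences were found in all. The printed sequences differ in the loop and in 1 pair of the stem. HIST1H2AC, HIST1H2BG and HIST2H2BE share 1 sequence, as do HIST1H4H and HIST1H4E, and the last 2 differed in Huh-7 once gene length was allowed for. In 24 of the 32 genes a transcript was annotated that runs more than 100 bases past the stem-loop.

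Promoters were taken from RefSeq on GRCh38.p14, where 63 members matched, each as the 250 bases before to the 50 bases after the annotated start. Capitals mark TATAAA, the TATA box; CCAAT, the binding sequence of NF-Y; ATTTGCAT, the octamer bound by POU2F1; and AAACACA, the H1 box. Each was searched on both strands, so that ATTGG is CCAAT on the other strand, and in HIST1H2BK the run TTTATAAA is TATAAA overlapping itself on the opposite strand. Shown are the 250 bases upstream of the start for the 3 most abundant replication-dependent genes, for HIST1H2AC as an H2A gene called in both lines, for HIST1H4H, and for the variant gene H2AFZ.
HIST1H3B (chr6:26032100-26032349, minus strand): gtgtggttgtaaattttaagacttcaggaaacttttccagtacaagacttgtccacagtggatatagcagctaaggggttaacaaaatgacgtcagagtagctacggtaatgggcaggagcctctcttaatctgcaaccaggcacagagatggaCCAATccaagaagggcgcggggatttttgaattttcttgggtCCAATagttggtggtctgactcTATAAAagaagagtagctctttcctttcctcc
HIST1H2BK (chr6:27146859-27147108, minus strand): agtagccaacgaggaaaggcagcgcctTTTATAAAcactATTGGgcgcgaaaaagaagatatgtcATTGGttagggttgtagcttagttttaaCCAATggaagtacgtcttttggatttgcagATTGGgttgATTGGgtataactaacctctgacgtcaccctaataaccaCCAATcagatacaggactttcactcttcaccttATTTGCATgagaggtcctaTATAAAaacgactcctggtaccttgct
HIST1H1C (chr6:26056471-26056720, minus strand): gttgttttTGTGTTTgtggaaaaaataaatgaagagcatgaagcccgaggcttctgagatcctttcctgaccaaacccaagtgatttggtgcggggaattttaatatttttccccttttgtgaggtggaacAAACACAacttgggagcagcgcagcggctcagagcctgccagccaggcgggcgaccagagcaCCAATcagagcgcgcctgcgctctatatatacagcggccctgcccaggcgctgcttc
HIST1H2AC (chr6:26123922-26124171, plus strand): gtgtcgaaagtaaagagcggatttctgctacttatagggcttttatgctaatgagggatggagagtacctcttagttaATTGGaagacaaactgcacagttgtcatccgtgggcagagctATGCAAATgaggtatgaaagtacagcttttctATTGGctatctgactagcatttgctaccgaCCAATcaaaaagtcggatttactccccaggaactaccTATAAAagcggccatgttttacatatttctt
HIST1H4H (chr6:26285535-26285784, minus strand): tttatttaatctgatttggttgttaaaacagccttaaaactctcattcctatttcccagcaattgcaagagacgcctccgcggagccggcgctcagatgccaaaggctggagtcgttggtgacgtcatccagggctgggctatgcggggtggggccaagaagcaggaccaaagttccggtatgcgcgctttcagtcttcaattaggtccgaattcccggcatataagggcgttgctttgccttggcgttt
H2AFZ (chr4:99950276-99950525, minus strand): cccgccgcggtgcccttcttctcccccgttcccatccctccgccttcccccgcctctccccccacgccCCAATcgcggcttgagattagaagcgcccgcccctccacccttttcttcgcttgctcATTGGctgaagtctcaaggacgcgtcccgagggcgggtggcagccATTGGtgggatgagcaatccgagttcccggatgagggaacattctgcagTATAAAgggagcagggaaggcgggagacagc

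HIST1H3B carried TATA and CCAAT boxes, HIST1H2BK and HIST1H2AC also the octamer, HIST1H1C the H1 box on both strands, and HIST1H4H none of the 4 motifs. TATAAA was in 39 of the 63 matched members (61.9%), against 12% of all 27305 promoters. CCAAT was in 52 members (82.5%), against 35.7% of all promoters, and it was present in 15 of 15 H2A, 16 of 16 H2B and 11 of 11 H3 promoters but in 1 of 10 H4 promoters. The octamer was in 23 members (36.5%), against 1.8% of all promoters. It was found in 10 of 15 H2A and 12 of 16 H2B promoters and in 1 of 11 H3 promoters, and in no H1, H4 or variant promoter. The H1 box was in 5 of 5 H1 promoters and in 8 members overall (12.7%), against 5.76% of all promoters. A match describes the letters in this window and says nothing about binding.

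Per length, a few genes held much of the histone RNA in these libraries, and they were different ones in the 2 lines. Members took 0.444% of all counts in Huh-7 KO, 0.326% in Huh-7 WT, 0.301% in HCC-LM3 KO and 0.35% in HCC-LM3 WT (means of 3 libraries). HIST1H3B, 1 of the H3 genes that encode the replication-dependent H3.1 protein, supplied 0.341% ± 0.0278 of the members' summed TPM (counts scaled to gene length and library size) in Huh-7 KO and 2.36% ± 0.197 in Huh-7 WT, but 44.4% ± 2.39 in HCC-LM3 KO and 48.6% ± 1.84 in HCC-LM3 WT (SD, n = 3 each). The H2B gene HIST1H2BK supplied 25.6% and 34.9% of the summed TPM in Huh-7 KO and WT, but 5.9% and 3.07% in HCC-LM3 KO and WT. HIST1H1C, the gene of linker histone H1.2, supplied 32.7% and 25.3% in Huh-7 KO and WT, but 1.75% and 0.854% in HCC-LM3 KO and WT. The share of H2AFZ was 3.08% in Huh-7 KO, 3.87% in Huh-7 WT, 15.8% in HCC-LM3 KO and 18.7% in HCC-LM3 WT, and that of the other variants was 7.15% in Huh-7 KO, 9.17% in Huh-7 WT, 20.9% in HCC-LM3 KO and 20.6% in HCC-LM3 WT. In bulk RNA, fewer cells in S phase and less histone RNA per cell cannot be told apart.

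**Figure D1:**
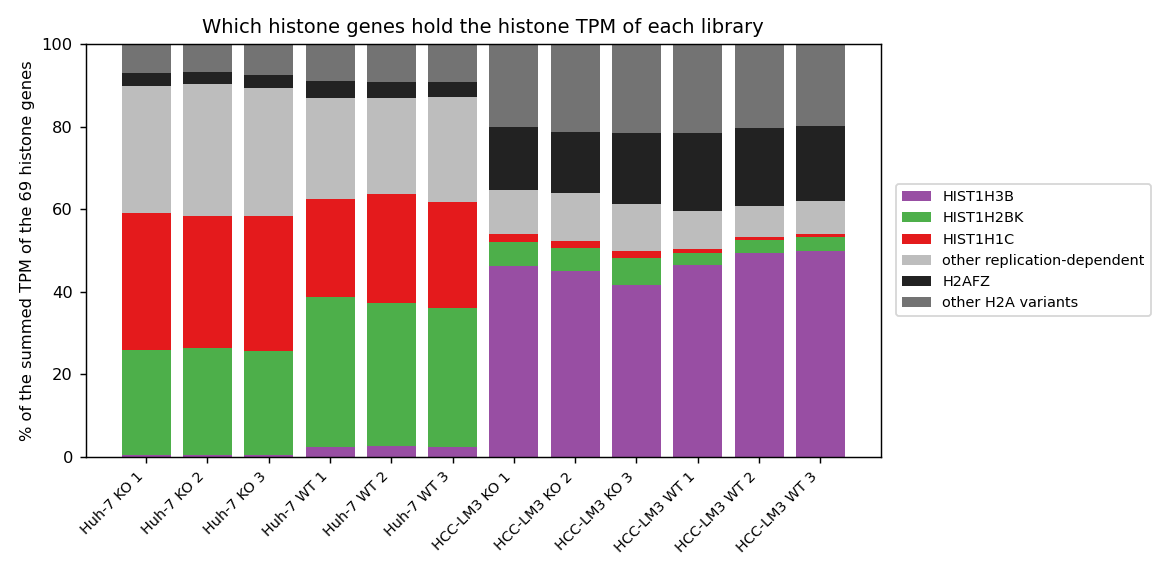
Stacked bars show, for each of the 12 libraries, the percentage of the 69 histone genes' summed TPM that came from HIST1H3B, HIST1H2BK, HIST1H1C, H2AFZ, the other replication-dependent genes and the other variants. HIST1H3B took 41.7% to 49.9% of the histone TPM in the 6 HCC-LM3 libraries and 0.309% to 2.59% in the 6 Huh-7 libraries.

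HIST1H3B had 21.2, 19 and 20.7 TPM in Huh-7 KO, against 127, 145 and 115 TPM in Huh-7 WT, and 1261, 1219 and 1128 TPM in HCC-LM3 KO, against 1336, 1550 and 1522 TPM in HCC-LM3 WT. By TPM it ranked between 2216 and 2362 among all genes in Huh-7 KO, 817 and 957 in Huh-7 WT, 133 and 151 in HCC-LM3 KO, and 119 and 128 in HCC-LM3 WT. The gene (ENSG00000274267) spans 411 bases at chr6:26031650-26032060 on the minus strand (GRCh38), which is its coding sequence without UTRs, and it shares 8.14% of its 31-base stretches with other annotated genes. All other replication-dependent genes together had 5333 ± 176 TPM in Huh-7 KO, 4607 ± 215 TPM in Huh-7 WT, 510 ± 17.6 TPM in HCC-LM3 KO and 367 ± 8.62 TPM in HCC-LM3 WT (SD, n = 3 each). So the 2 lines were ordered one way for HIST1H3B and the opposite way for the rest of the replication-dependent genes, with no overlap between libraries of different lines.

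In Huh-7, KO cells had more counts than WT cells from most histone genes relative to the rest of the transcriptome. HIST1H3B was the only member called lower with TMM. With edgeR's quasi-likelihood test on TMM-scaled counts, 49 of the 58 tested members were higher in KO and 1 was lower with p adjusted by Benjamini-Hochberg over 16537 genes and a threshold of 0.05. Over all genes tested, 31.7% were higher and 43.2% lower. The 11 members with too few counts for the test were HIST1H1D, HIST1H2AK, HIST1H2AJ, HIST2H2AB, HIST1H2BB, HIST1H2BI, HIST1H3F, HIST1H3J, HIST1H3I, HIST1H4D and HIST1H4A. The median log2 fold change was 1.59 over the tested members and -0.30 over all genes. The count of higher members depends on how gene length is handled. With offsets for transcript GC content and length, 20 members were higher and 11 lower, against 22% and 39.6% of all genes, and the medians were 0.32 and -0.28. With library totals alone, which lower the median of all genes to -1.40, 29 members were higher and 9 lower, against 12.1% and 65.3% of all genes, and the members' median was 0.48. With limma on log2(TPM + 1), 9 members were higher and 14 lower, against 5.18% and 69.1% of all genes.

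**Figure D2:**
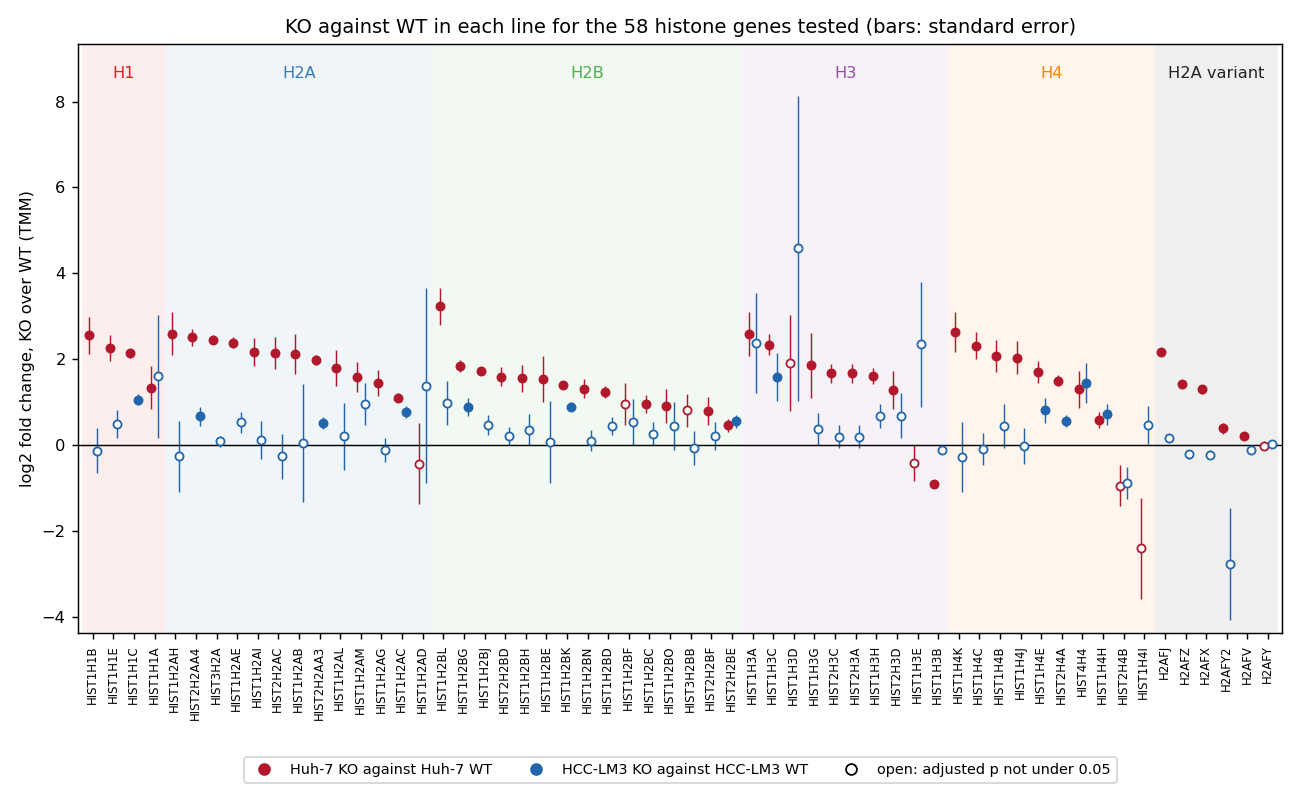
Points show the log2 fold change of KO over WT with its standard error for the 58 tested histone genes, grouped by family, in Huh-7 and in HCC-LM3 (filled: adjusted p under 0.05; open: not called). In Huh-7 49 genes are called higher and HIST1H3B alone lower; in HCC-LM3 12 genes are called higher and none lower.

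Short genes in general moved this way in Huh-7. The tested members have a median deposited length of 670 bases and a median GC content of 56.4%, against 2745 bases and 50.1% for all genes tested. Among the other genes under 500 bases, the median log2 fold change was 1.53 (300 genes), against 1.98 for the 20 members of that length, of which 17 were called higher. Between 500 and 1000 bases the other genes' median was 1.40 and that of the 18 members 1.86. Between 1000 and 2000 bases the medians were 0.72 for other genes and 1.30 for 11 members, and between 2000 and 4000 bases -0.27 for other genes and 1.13 for 8 members. RNAs without a poly(A) tail that are not histone mRNAs also moved, with 8 of 10 tested higher and 1 lower, a median of 2.39, and examples such as RPPH1, the RNA of RNase P, at 3.33 and RN7SL1, the signal recognition particle RNA, at 3.02. With the GC and length offsets that list had 2 higher, 2 lower and a median of 0.37. The part of gene length, of GC content and of library make-up in the histone result was not tested.

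**Figure D3:**
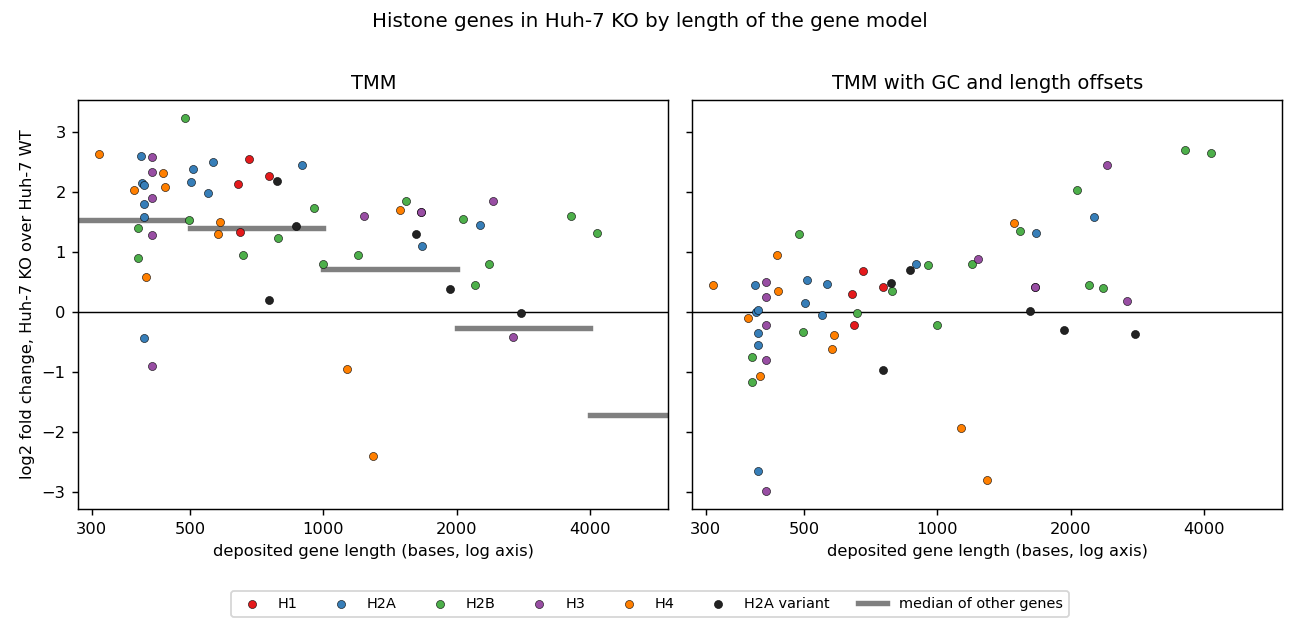
Log2 fold change of Huh-7 KO over Huh-7 WT is plotted against deposited gene length (log axis) for the 58 tested histone genes, with TMM scaling on the left and with GC and length offsets on the right. Grey bars mark the median of the other genes in each length range, 1.53 under 500 bases and -1.72 over 4000 bases with TMM scaling.

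HIST1H3B went the other way in Huh-7. It had 133, 121 and 123 CPM in KO, against 232, 257 and 214 CPM in WT. Every KO library lay below every WT library. The log2 fold change was -0.90 (SE 0.10, adjusted p = 6.93e-10), and the gene was called lower in all 22 alternative settings, at -2.97 with GC and length offsets, -2.01 with library totals and -2.61 on log2(TPM + 1).

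All 4 tested H1 genes were higher in Huh-7 KO, with a median log2 fold change of 2.21. HIST1H1C (ENSG00000187837, chr6:26055787-26056428, minus strand, GRCh38) had 2519, 2531 and 2321 CPM in KO, against 551, 584 and 534 CPM in WT, a log2 change of 2.14 (SE 0.11, adjusted p = 7.93e-18). It stayed called in all 22 alternatives, but was 0.30 with the length offsets. HIST1H1B, the gene of H1.5, had 2.66, 3.73 and 2.97 CPM in KO, against 0.402, 0.482 and 0.709 CPM in WT, from 11 to 32 counts per library. Its log2 fold change was 2.56 (SE 0.43, adjusted p = 2.07e-06), and at 0.68 it was not called with the offsets. Of the H1 genes, only HIST1H1C was called with the offsets.

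Of the 13 tested H2A genes, 12 were higher, with a median of 2.12. HIST2H2AA4 had 716, 839 and 620 CPM in Huh-7 KO, against 145, 135 and 103 CPM in WT, a log2 change of 2.51 (SE 0.20, adjusted p = 4.01e-07), and it stayed called with the offsets at 0.47. Its near-identical neighbour HIST2H2AA3 had 644, 681 and 677 CPM in KO, against 182, 141 and 184 CPM in WT, and a log2 change of 1.98 (SE 0.12, adjusted p = 9.44e-14) that turned to -0.05, not called, with the offsets. These genes share 97.2% and 100% of their 31-base stretches with other genes, so how counts were divided between them is uncertain. HIST1H2AH had 2.17, 2.21 and 1.98 CPM in KO, against 0.256, 0.438 and 0.355 CPM in WT, a log2 change of 2.60 (SE 0.50, adjusted p = 2.19e-05) that was 0.46 and not called with the offsets. HIST1H2AC had 93.3, 79.9 and 98 CPM in KO, against 45.6, 45.4 and 34.4 CPM in WT. Its log2 fold change was 1.11 (SE 0.11, adjusted p = 5.53e-11), 1.32 with the offsets, 0.00 with library totals and -0.52 on log2(TPM + 1). The exception was HIST1H2AD, whose 0.69, 4.54 and 0 CPM in KO and 1.79, 3.59 and 1.47 CPM in WT overlapped (log2 fold change -0.43, SE 0.94, adjusted p = 0.705). HIST1H2AD was called lower with the offsets (-2.64), on log2(TPM + 1) (-2.36) and without Huh-7 KO replicate 2 (-2.65). It shares 98.1% of its 31-base stretches with other genes. With the offsets 5 H2A genes were higher and 1 lower.

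Of the 15 tested H2B genes, 13 were higher, with a median of 1.32. HIST1H2BK (ENSG00000197903, chr6:27146418-27146798, minus strand, GRCh38), the member with the highest mean TPM, had 2857, 2947 and 2676 CPM in Huh-7 KO, against 1159, 1056 and 994 CPM in WT, a log2 change of 1.40 (SE 0.10, adjusted p = 2.05e-14). The direction turned to -0.74 with the offsets and -0.32 on log2(TPM + 1), where KO had 1500, 1604 and 1469 TPM and WT had 2040, 1934 and 1735 TPM. It shares 86.3% of its 31-base stretches with other annotated genes, most of them with H2BFS, a near copy. HIST1H2BL had the largest increase of all tested members with TMM, though with the offsets HIST2H2BD, at 2.70, and HIST1H2BN, at 2.65, were among those above it. It had 2.56, 2.68 and 3.41 CPM in KO, against 0.293, 0.175 and 0.456 CPM in WT, from 4.14 to 31 counts per library, a log2 change of 3.23 (SE 0.44, adjusted p = 5.3e-08). It was called higher in all 22 alternatives and was 1.30 with the offsets. HIST1H2BG had 31.6, 31.9 and 35.7 CPM in KO, against 10.2, 8.45 and 8.81 CPM in WT, a log2 change of 1.85 (SE 0.14, adjusted p = 5.57e-14) that stayed at 1.35 with the offsets. With the offsets 8 H2B genes were higher and 2 lower.

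Of the 10 tested H3 genes, 7 were higher and HIST1H3B lower, with a median of 1.67. HIST2H3A and HIST2H3C had equal counts in each of the 12 libraries and share 100% of their 31-base stretches. They are thus 1 signal that enters this count, and every count of members, as 2 genes. HIST1H3A had 1.87, 1.05 and 2.53 CPM in Huh-7 KO, against 0.329, 0.306 and 0.253 CPM in WT, from 5 to 23 counts per library. Its log2 fold change was 2.59 (SE 0.51, adjusted p = 3.31e-05), and at 0.51 it was not called with the offsets. Summed over the tested and untested H3 genes other than HIST1H3B, the level was 61.3, 57.9 and 53 CPM in KO, against 17.2, 17.1 and 18.2 CPM in WT. HIST1H3B thus went against the sum of the rest of its own family in TMM-scaled counts, while encoding the same H3.1 protein as its family members in the HIST1 cluster. With the offsets 2 H3 genes were higher and 1 lower.

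Of the 10 tested H4 genes, 8 were higher, with a median of 1.60. HIST2H4B (-0.94) and HIST1H4I (-2.40) were not called with TMM, though every Huh-7 KO library lay below every WT library. Each was called lower with the offsets, with library totals and on log2(TPM + 1). HIST1H4I rested on 0 to 9.02 counts per Huh-7 library. HIST2H4B shares 95.2% of its 31-base stretches with HIST2H4A, so its counts are uncertain. HIST1H4K had 4.73, 4.54 and 4.29 CPM in Huh-7 KO, against 0.951, 0.482 and 0.709 CPM in WT, a log2 change of 2.64 (SE 0.47, adjusted p = 1.53e-05) that was 0.46 and not called with the offsets. Its sequence is shared in full with other genes, HIST1H4J among them, so its counts are uncertain. HIST1H4H (ENSG00000158406, chr6:26277609-26285638, minus strand, GRCh38) had 11.6, 9.79 and 8.57 CPM in KO, against 6.66, 6.65 and 6.69 CPM in WT. Its log2 fold change was 0.59 (SE 0.18, adjusted p = 0.00452), but -1.07 with the offsets and -0.52 with library totals. HIST1H4E, which carries the same stem-loop, had 6.61, 5.83 and 6.7 CPM in KO, against 1.61, 2.01 and 2.33 CPM in WT, and was called higher with TMM and with the offsets. Both were higher in every KO library than in any WT library. With the offsets 2 H4 genes were higher and 4 lower.

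Of the 6 variant genes, 5 were higher in Huh-7 KO, with a median of 0.84. H2AFJ, the gene of the H2A.J variant, had 247, 265 and 252 CPM in KO, against 58.3, 56 and 53.8 CPM in WT, a log2 change of 2.18 (SE 0.09, adjusted p = 1.09e-19) that was called in all 22 alternatives and was 0.49 with the offsets. H2AFZ, which encodes H2A.Z.1, a variant found at promoters, had 392, 355 and 368 CPM in KO, against 153, 140 and 121 CPM in WT, a log2 change of 1.43 (SE 0.10, adjusted p = 3.45e-14), 0.70 with the offsets and -0.19 on log2(TPM + 1). H2AFX, whose product is phosphorylated at DNA breaks, had 504, 525 and 484 CPM in KO, against 203, 202 and 210 CPM in WT, a log2 change of 1.30 (SE 0.10, adjusted p = 2.67e-13). It was 0.02, and not called, with the offsets. The remaining variants differed less with TMM, and their calls and directions depended on the setting. H2AFY2, 1 of the macroH2A genes, had 42.1, 37.4 and 39.3 CPM in KO, against 30.9, 32.6 and 27.4 CPM in WT (log2 fold change 0.39, SE 0.12, adjusted p = 0.00586), and turned to -0.29 with the offsets and -0.73 with library totals. H2AFV, the gene of H2A.Z.2, had 134, 125 and 126 CPM in KO, against 110, 117 and 105 CPM in WT (log2 fold change 0.21, SE 0.09, adjusted p = 0.0322). It turned to -0.97 with the offsets and -0.90 with library totals, and lost its call when Huh-7 KO replicate 1 (0.18) or 3 (0.22) or Huh-7 WT replicate 1 (0.20) or 3 (0.17) was left out. H2AFY, the other macroH2A gene, had 106, 95.9 and 108 CPM in KO and 106, 114 and 90.2 CPM in WT, which overlapped (log2 fold change -0.01, SE 0.10, adjusted p = 0.98). H2AFY was called lower with the offsets at -0.37, with library totals at -1.12 and on log2(TPM + 1) at -1.54, but higher by DESeq2 and with its size factors at 0.43.

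**Figure D4:**
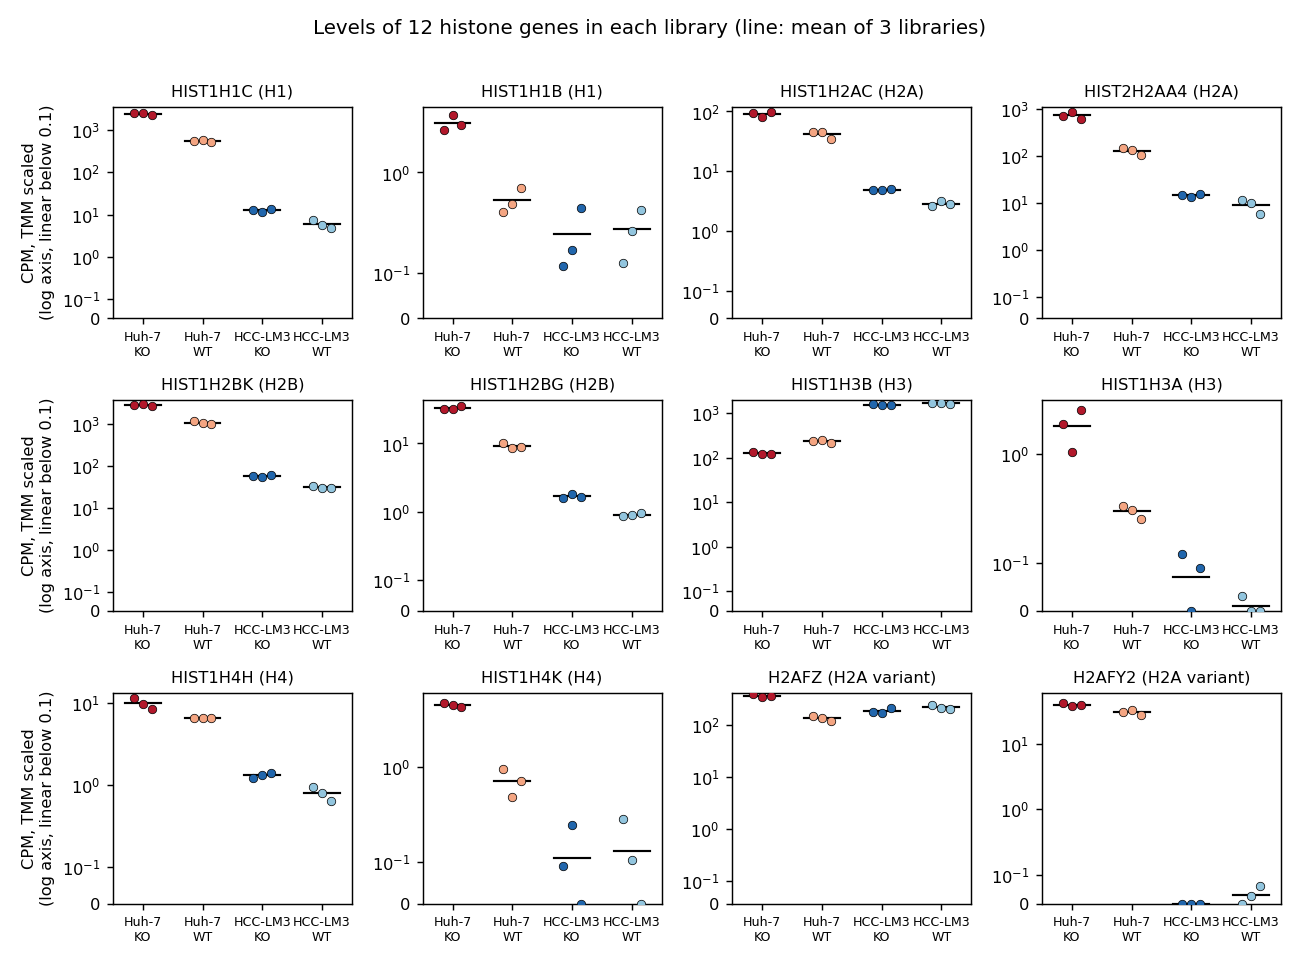
CPM scaled by TMM (symmetric log axis) is shown for each library of Huh-7 KO, Huh-7 WT, HCC-LM3 KO and HCC-LM3 WT and for 12 histone genes of the 6 families. HIST1H3B is highest in HCC-LM3 (1530 to 1728 CPM), whereas HIST1H1C and HIST1H2BK are highest in Huh-7 KO (2321 to 2947 CPM).

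Across settings, 7 members were called higher in Huh-7 KO by TMM, with the offsets, with library totals, on log2(TPM + 1) and by DESeq2, and these were H2AFJ, HIST1H1C, HIST1H2AE, HIST1H2BL, HIST1H4C, HIST2H2AA4 and HIST3H2A. The share of all genes called in every one of these settings is not given here, so the 7 cannot be set against it. HIST2H2AA4 shares 97.2% of its 31-base stretches with HIST2H2AA3, which was not called with the offsets, so its standing depends on how counts were divided. HIST3H2A had 117, 115 and 110 CPM in KO, against 20.4, 18.7 and 22.9 CPM in WT, and HIST1H2AE had 75.3, 70.8 and 64.2 CPM in KO, against 13.7, 13.3 and 13 CPM in WT. The only member called lower in all of the settings named above was HIST1H3B. Another 6 members, H2AFV, H2AFY2, HIST1H2BK, HIST1H2BO, HIST1H4H and HIST2H4A, were called higher by TMM but lower with the offsets. Groups did not overlap for 49 members that were higher and 3 that were lower, against 32.3% and 44.2% of all genes. Those lower were HIST1H3B, HIST2H4B and HIST1H4I. The smallest 2-sided p that an exact permutation test can give with 3 against 3 libraries is 0.1, so no single gene was tested that way.

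In HCC-LM3, HIST1H1C, HIST1H2BK, HIST1H2AC, HIST1H2BG and HIST2H2BE rose in KO cells by TMM, with the offsets, with library totals, on log2(TPM + 1) and by DESeq2. A further 7 genes were called with TMM, and none of the variants passed the test. By edgeR, 12 of the 58 tested members were higher and 0 lower, against 14% and 12.9% of all genes, and the median log2 fold change was 0.41 over the members and 0.00 over all genes. The share called higher was therefore near the background. At an unadjusted p under 0.05, edgeR gave 16 higher and 4 lower. DESeq2 called 13 higher and 0 lower (19 and 1 unadjusted), and limma on log2(TPM + 1) called 5 higher and 3 lower, against 5.67% and 14.6% of all genes. The 12 were HIST1H1C, HIST1H2AC, HIST1H2BG, HIST1H2BK, HIST1H3C, HIST1H4E, HIST1H4H, HIST2H2AA3, HIST2H2AA4, HIST2H2BE, HIST2H4A and HIST4H4. Each was also called higher in Huh-7 KO, but 49 of the 58 tested members were, so a large overlap was likely in advance. The share of all genes called higher in both lines is not given here. Of the 12, HIST1H3C rested on 5, 10 and 17 counts in KO and 6, 0 and 5 counts in WT, which overlapped. HIST4H4 rested on 23, 14 and 23 counts in KO and 6, 9 and 8 counts in WT. Both lost their calls with the offsets, with library totals and on log2(TPM + 1). HIST2H4A shares 100% of its 31-base stretches with HIST2H4B, so how counts were divided between these genes is uncertain. In HCC-LM3, HIST2H4A had 13.7, 13.2 and 14.8 CPM in KO and 12.4, 7.49 and 8.43 CPM in WT. HIST2H4B had 1.75, 1.07 and 1.91 CPM in KO and 1.24, 3.55 and 3.91 CPM in WT. The 2 lines share no control libraries. The count rested on single libraries: without HCC-LM3 WT replicate 1, which stood apart, it was 14 higher and 1 lower, and without HCC-LM3 WT replicate 2 or HCC-LM3 KO replicate 3 it was 6 higher. With library totals 7 were higher and 4 lower, against 7.25% and 20.7% of all genes. With the offsets 7 were higher and 2 lower, against 8.55% and 8.77% of all genes. Groups did not overlap for 13 members that were higher and 2 that were lower, against 20.5% and 18.2% of all genes.

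HIST1H1C had 12.8, 11.7 and 13.6 CPM in HCC-LM3 KO, against 7.64, 5.85 and 4.89 CPM in WT, a log2 change of 1.06 (SE 0.13, adjusted p = 7.74e-07). HIST1H2BK had 56.9, 55.9 and 62.4 CPM in KO, against 34.1, 29.7 and 29.8 CPM in WT, a log2 change of 0.90 (SE 0.10, adjusted p = 2.27e-07). Both were higher in every KO library. HIST1H2BG had 1.6, 1.86 and 1.67 CPM in KO, against 0.887, 0.888 and 0.977 CPM in WT, a log2 change of 0.89 (SE 0.20, adjusted p = 0.00121). HIST1H2AC had 4.98, 4.97 and 5.02 CPM in KO, against 2.66, 3.24 and 2.81 CPM in WT, a log2 change of 0.77 (SE 0.14, adjusted p = 0.000178). HIST2H2BE, an H2B gene of the chromosome 1 cluster, had 8.3, 7.73 and 8.75 CPM in KO, against 6.59, 5.04 and 5.22 CPM in WT. HIST1H1C, HIST1H2AC, HIST1H2BG, HIST1H4E and HIST2H2BE were called higher in both lines with the offsets too. In Huh-7, however, HIST2H2BE was at 0.46 with TMM but was called lower in 2 settings. It was at -0.65 with library totals and at -0.84 on log2(TPM + 1). HIST1H2AC was also called lower in Huh-7 on log2(TPM + 1), at -0.52.

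HIST1H4H had 1.22, 1.34 and 1.4 CPM in HCC-LM3 KO, against 0.951, 0.81 and 0.641 CPM in WT, a log2 change of 0.72 (SE 0.24, adjusted p = 0.0235). It lost its call when HCC-LM3 WT replicate 2 (0.72) or 3 (0.58) or HCC-LM3 KO replicate 2 (0.70) or 3 (0.67) was left out, and with the offsets (0.56). HIST2H2AA4 had 14.7, 13.4 and 15.3 CPM in KO, against 11.3, 10 and 5.86 CPM in WT, a log2 change of 0.67 (SE 0.23, adjusted p = 0.049). It lost its call when any of HCC-LM3 WT replicate 2 (0.75), HCC-LM3 KO replicates 1 (0.65), 2 (0.71) or 3 (0.63), Huh-7 KO replicate 1 (0.67) or Huh-7 WT replicate 2 (0.66) was left out, and with the offsets (0.40). HIST2H2AA3 had 13.1, 14.6 and 16.5 CPM in KO, against 12.1, 7.86 and 11.3 CPM in WT (log2 fold change 0.51, SE 0.14, adjusted p = 0.00804). It lost its call without HCC-LM3 WT replicate 2 (0.32) or HCC-LM3 KO replicate 3 (0.41), with the offsets (0.23) and on log2(TPM + 1) (0.32).

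HIST1H3B, the dominant histone gene of HCC-LM3, had 1614, 1561 and 1530 CPM in KO, against 1728, 1688 and 1652 CPM in WT. Every KO library lay below every WT library, from 45266 to 64642 counts each, but the log2 fold change of -0.11 (SE 0.10, adjusted p = 0.443) was not called. It was -0.41 with the offsets and -0.26 with library totals, where it was called. The 6 variant genes were not called by edgeR (3 lower at an unadjusted p under 0.05) or by DESeq2, while limma on log2(TPM + 1) called 2 lower, and 5 of them had log2 fold changes between -0.22 and 0.18. H2AFZ had 180, 173 and 214 CPM in KO and 239, 214 and 203 CPM in WT, and the groups overlapped (log2 fold change -0.21, SE 0.10, adjusted p = 0.125). H2AFZ was called lower with library totals at -0.36 and on log2(TPM + 1) at -0.40. H2AFV was called lower with library totals, at -0.26. H2AFX had 41.2, 41.3 and 50.6 CPM in KO and 60.1, 49.8 and 45 CPM in WT (log2 fold change -0.22, SE 0.10, adjusted p = 0.122), and was called lower with the offsets at -0.48 and with library totals at -0.37. H2AFY2 was almost absent from this line, with 0 counts in all 3 KO libraries and 0, 1.04 and 1.99 counts in WT, so no fold is given.

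The KO effect differed between the lines for many histone genes. The test of that difference (HCC-LM3 effect minus Huh-7 effect) called 2 members positive and 33 negative, against 37.7% and 23.9% of all genes, and the median difference was -1.15 over the members and 0.39 over all genes. This count turned on the handling of length. With the offsets 8 members were positive and 8 negative, against 32.8% and 17.4% of all genes, and with library totals 8 and 9, against 57.5% and 9.52% of all genes. HIST1H3B was the member whose difference was positive in all 21 alternatives, at 0.79 (SE 0.14, adjusted p = 6.63e-06), and at 2.56 with the offsets. The other positive one was HIST1H4I, named because the count is small. It had 0, 0 and 1 count in Huh-7 KO and 9.02, 3.01 and 3 counts in Huh-7 WT, against 22, 11 and 19 counts in HCC-LM3 KO and 15, 10 and 14 counts in HCC-LM3 WT.

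Negative differences occurred both in well-counted genes and in genes with few counts in HCC-LM3. Among the well-counted ones, HIST3H2A, chosen after its values were seen, had 117, 115 and 110 CPM in Huh-7 KO, against 20.4, 18.7 and 22.9 CPM in Huh-7 WT, and 4.63, 4.83 and 5.26 CPM in HCC-LM3 KO, against 5.13, 4.36 and 4.4 CPM in HCC-LM3 WT. Its difference was -2.38 (SE 0.16, adjusted p = 3e-14), and -0.89 with the offsets. H2AFJ had 23.9, 24.9 and 27.2 CPM in HCC-LM3 KO and 24.3, 21.9 and 21.2 CPM in HCC-LM3 WT, which overlapped. Its difference was -2.01 (SE 0.13, adjusted p = 8.66e-15), and -0.49 with the offsets. These 2 genes had called negative differences in all 21 alternatives. In all, 8 of the 33 kept a called negative difference with the offsets, and 4, namely H2AFV, HIST1H1C, HIST1H2BK and HIST2H4A, had a called positive one.

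The 4 members with the largest negative differences under the rule for named genes had few counts in HCC-LM3. HIST1H4K had 0.089, 0.241 and 0 CPM in HCC-LM3 KO and 0.285, 0.104 and 0 CPM in HCC-LM3 WT, and its difference of -2.91 (SE 0.97, adjusted p = 0.0117) was not called without HCC-LM3 WT replicate 1, at -1.85, or with the offsets, at -1.09. HIST1H1B had 0.119, 0.172 and 0.448 CPM in HCC-LM3 KO and 0.127, 0.261 and 0.428 CPM in HCC-LM3 WT. Its difference was -2.69 (SE 0.68, adjusted p = 0.000824), and -1.06, not called, with the offsets. The H2A gene HIST2H2AC had 4.44, 4.08 and 4.73 CPM in Huh-7 KO, against 1.13, 0.963 and 0.861 CPM in Huh-7 WT, and 0.0593, 0.31 and 0.329 CPM in HCC-LM3 KO, against 0.539, 0.157 and 0.153 CPM in HCC-LM3 WT. Only the Huh-7 groups were apart. Its difference was -2.41 (SE 0.65, adjusted p = 0.00174), and it was not called without HCC-LM3 WT replicate 1, at -1.65, or with the offsets, at -0.59. H2AFY2 had a fitted difference of -3.15 (SE 1.35, adjusted p = 0.0468), which rests on the 3 counts in HCC-LM3 WT and is no bound. It was not called in 7 of the 12 fits that leave out a library, with values between -3.23 and -2.36, nor with the offsets at -2.61, and it was 1.11 on log2(TPM + 1).

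Between the WT lines, HCC-LM3 had fewer counts than Huh-7 from most histone genes relative to the rest of the transcriptome. From HIST1H3B it had many more. By edgeR, 4 of the 58 tested members were higher in HCC-LM3 WT and 46 lower than in Huh-7 WT, against 41.8% and 41% of all genes, with a median log2 fold change of -1.88 over the members and 0.03 over all genes. The 4 were HIST1H3B, HIST1H3G, H2AFY and H2AFZ. With the offsets 5 were higher and 40 lower, against 42.7% and 40.1% of all genes. With library totals, which raise the median of all genes to 0.46, 8 were higher and 41 lower, against 51% and 32.8% of all genes. Groups did not overlap for 5 higher and 45 lower members, against 41.8% and 40.8% of all genes. By family, 3 of 4 H1 genes, 12 of 13 H2A, 13 of 15 H2B, 8 of 10 H3 and 7 of 10 H4 genes were lower, and of the 6 variants 3 were lower and 2 higher. Among RNAs without a poly(A) tail that are not histone mRNAs, 0 of 10 tested were higher and 5 lower. Their median was -1.53, and with the offsets it was -0.75 with the same counts. The part of library make-up in the line difference was not tested.

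HIST1H3B had 1728, 1688 and 1652 CPM in HCC-LM3 WT, against 232, 257 and 214 CPM in Huh-7 WT, a log2 change of 2.85 (SE 0.10, adjusted p = 6.6e-23) or 7.2-fold. Its own family went the other way, since the remaining H3 genes summed to 4.22, 3.32 and 3.18 CPM in HCC-LM3 WT, against 17.2, 17.1 and 18.2 CPM in Huh-7 WT. HIST1H1C had 7.64, 5.85 and 4.89 CPM in HCC-LM3 WT, against 551, 584 and 534 CPM in Huh-7 WT, a log2 change of -6.51 (SE 0.14, adjusted p = 3.21e-29). HIST1H2BJ, an H2B gene, had 0.634, 0.601 and 0.611 CPM in HCC-LM3 WT, against 41.1, 38.1 and 39 CPM in Huh-7 WT, a log2 change of -5.99 (SE 0.15, adjusted p = 2.15e-27). HIST1H2BK had 34.1, 29.7 and 29.8 CPM in HCC-LM3 WT, against 1159, 1056 and 994 CPM in Huh-7 WT. For these 3 genes the lines were farther apart than KO and WT were within either line.

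**Figure D5:**
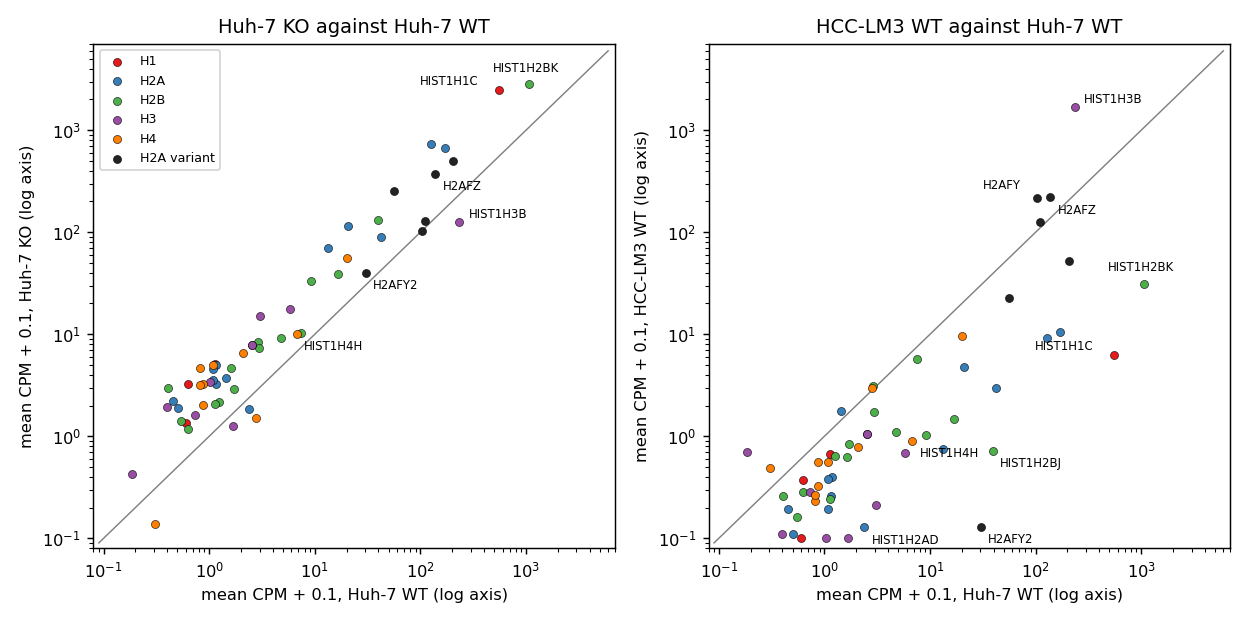
Each point is a histone gene, with mean CPM + 0.1 on log axes, for Huh-7 KO against Huh-7 WT on the left and for HCC-LM3 WT against Huh-7 WT on the right; colours mark the families and the line marks equal levels. HIST1H3B lies below the line on the left (126 CPM in KO, 234 CPM in WT) and above it on the right (1690 CPM in HCC-LM3 WT, 234 CPM in Huh-7 WT).

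Some genes were at or near 0 in HCC-LM3 WT. HIST1H2AD had 3 counts in the 3 HCC-LM3 WT libraries against 160 in Huh-7 WT, a ratio of 78.3-fold in favour of Huh-7 WT (95% exact interval 26.3 to 383, counting error only). Since HIST1H2AD shares 98.1% of its 31-base stretches with other genes, the interval leaves out uncertainty in how reads were divided. H2AFY2 (ENSG00000099284, chr10:70052796-70112280, plus strand, GRCh38) had 3 counts in HCC-LM3 WT against 2131 in Huh-7 WT, a ratio of 1042-fold in favour of Huh-7 WT (interval 356 to 5058). With 0 counts in HCC-LM3 KO, it was at least 421-fold lower there than in Huh-7 KO, at a floor of 3 counts per library. HIST1H3E and HIST1H1A, at 0 in HCC-LM3 WT, were at least 17.8-fold and at least 5.68-fold lower there than in Huh-7 WT. The other macroH2A gene, H2AFY, went the opposite way, with 236, 213 and 203 CPM in HCC-LM3 WT, against 106, 114 and 90.2 CPM in Huh-7 WT (log2 fold change 1.07, SE 0.10, adjusted p = 5.18e-12). H2AFZ (ENSG00000164032, chr4:99948086-99950388, minus strand, GRCh38) had 239, 214 and 203 CPM in HCC-LM3 WT, against 153, 140 and 121 CPM in Huh-7 WT (log2 fold change 0.67, SE 0.10, adjusted p = 4.75e-07). H2AFZ, H2AFY and HIST1H3B kept their calls in all 21 alternatives.

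Genes that act on histone mRNA were compared in the same fit, as context for the members. The shares of all genes called higher and lower apply to each list below. They were 31.7% and 43.2% in Huh-7 KO, and 14% and 12.9% in HCC-LM3 KO. With the offsets they were 22% and 39.6% in Huh-7 KO, and 8.55% and 8.77% in HCC-LM3 KO. On log2(TPM + 1) they were 5.18% and 69.1% in Huh-7 KO. In the list of stem-loop binding and 3′ processing factors, 6 of 21 genes were higher and 12 lower in Huh-7 KO, with a median of -0.50, beside 31.7% and 43.2% of all genes. The balance depended on the setting, with 8 higher and 10 lower with the offsets and 9 higher and 7 lower by DESeq2. SNRPG, a ring protein of snRNPs, had a log2 change of 2.28 and LSM10, a U7-specific ring protein, 2.18, whereas the cap-binding protein NCBP1 had -2.25 and the U7-associated factor CASP8AP2 -3.49. SLBP itself, singled out for its role after its values were seen, averaged 19 ± 3.06 CPM in Huh-7 KO, against 35.6 ± 3.57 CPM in Huh-7 WT (log2 fold change -0.90, SE 0.12, adjusted p = 1.83e-08), and 45.2 ± 1.31 CPM in HCC-LM3 KO, against 45.4 ± 2.97 CPM in HCC-LM3 WT (log2 fold change -0.00, SE 0.10, adjusted p = 1). With the offsets SLBP was at -1.06 in Huh-7 and 0.14 in HCC-LM3. In HCC-LM3 KO 6 genes of the list were higher and 7 lower (5 and 5 with the offsets). Among the higher ones was CASP8AP2 at 1.03, opposite in sign to its Huh-7 value.

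Of 14 transcription factors and kinases of the histone genes, 3 were higher and 9 lower in Huh-7 KO, with a median of -1.49. The shares over all genes were 31.7% and 43.2%. With the offsets the list counts were again 3 and 9, beside 22% and 39.6% of all genes, and the median was -0.63. NPAT, the cyclin E-CDK2 substrate that sits at the histone clusters, averaged 0.208 ± 0.181 CPM in Huh-7 KO, against 3.46 ± 0.489 CPM in Huh-7 WT (log2 fold change -3.97, SE 0.50, adjusted p = 1.92e-08; -2.29 with the offsets), and 3.38 ± 0.987 CPM in HCC-LM3 KO and 4.26 ± 1.22 CPM in HCC-LM3 WT (log2 fold change -0.34, adjusted p = 0.295). HINFP, the H4 gene activator, went the other way at 1.27 in Huh-7 and 1.32 with the offsets. The coactivators EP300, at -4.74, and CREBBP, at -3.87, were the lowest with NPAT. In HCC-LM3 KO 2 genes of this list were higher and 3 lower (1 and 2 with the offsets).

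Of 10 genes of histone mRNA decay, 1 was higher and 9 lower in Huh-7 KO, beside 31.7% and 43.2% of all genes. The median was -2.34, and the uridylyltransferase TUT4 led the lower genes at -3.56 (-1.93 with the offsets). With the offsets 1 was higher and 7 lower, beside 22% and 39.6% of all genes, and the median was -0.77. In HCC-LM3 KO 1 was higher and 3 lower, among them the 3′ exonuclease ERI1 at -0.65 (-0.36 with the offsets). With the offsets 0 were higher and 2 lower there. Of 29 histone chaperones and deposition factors, 4 were higher and 24 lower in Huh-7 KO, with a median of -1.17. With the offsets 0 were higher and 19 lower, and the median was -0.75. With TMM, EP400, a remodeller that places H2A.Z, was at -3.41, and ZNHIT1, a subunit of another H2A.Z-placing complex, at 1.94. In HCC-LM3 KO 4 of the 29 were higher and 10 lower, beside 14% and 12.9% of all genes, but 4 and 3 with the offsets. Of 5 tested histone genes outside the name rule, 4 were higher and 1 lower in Huh-7 KO, but 2 were higher and 3 lower with the offsets and 0 higher and 5 lower on log2(TPM + 1). H3-3A and H3-3B, which encode the replication-independent H3.3, were at 0.84 and 0.91, and the centromeric CENPA at 1.24; with the offsets H3-3B turned to -1.09.

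Among proliferation genes in Huh-7 KO, more were called lower than higher in the settings given here. Of 30 S phase genes there, 6 were higher and 18 lower, with a median of -1.11, beside 31.7% and 43.2% of all genes. With the offsets 3 were higher and 23 lower (median -0.85), beside 22% and 39.6% of all genes, and by DESeq2 12 and 16. On log2(TPM + 1) 0 were higher and 30 lower, beside 5.18% and 69.1% of all genes. In HCC-LM3 KO 11 were higher and 5 lower, with a median of 0.09, beside 14% and 12.9% of all genes. With the offsets 7 were higher and 2 lower there, beside 8.55% and 8.77% of all genes. Of 18 mitotic genes, 4 were higher and 13 lower in Huh-7 KO by edgeR, with a median of -1.58. In HCC-LM3 KO 0 were higher and 10 lower (2 and 11 at an unadjusted p under 0.05, and 2 and 11 called by DESeq2). With the offsets 2 were higher and 12 lower in Huh-7 KO (median -0.54), and 0 and 7 in HCC-LM3 KO. On log2(TPM + 1) 0 of the mitotic genes were higher and 18 lower in Huh-7 KO. The shares of all genes given for the S phase list apply to the mitotic list too. Among S phase genes in Huh-7 KO, the checkpoint mediator CLSPN was at -3.11 and the ribonucleotide reductase subunit RRM1 at -2.80, whereas thymidine kinase TK1 was at 1.40. The 6 immune markers summed to 107 to 113 CPM in Huh-7 KO and 65 to 74.3 CPM in Huh-7 WT, and to 54.5 to 57.4 CPM in HCC-LM3 KO and 38.3 to 46.8 CPM in HCC-LM3 WT, with the leukocyte marker PTPRC at 0 in Huh-7 KO and in both HCC-LM3 groups. The part of cell cycle distribution in the histone levels was not tested, nor was that of gene length in the gene lists.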

How the data were processed

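RNA-seq was deposited for 12 libraries, 3 in each of 4 groups taken from the sample titles. Per the file headers, the authors deposited a table of expected counts and of TPM per gene, with gene length. The submitters' processing notes list Bowtie 0.12.2 along with mm8 and mm9, which are mouse builds and do not go with the human gene identifiers. The counting tool, its use of strand, the annotation and the treatment of reads with several matches were not given in the sources used here, so overlapping genes and near-identical copies are uncertain. In each library 7.49% to 13.3% of genes had an expected count that was not whole, and TPM summed to 977632 to 998831.

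Expected counts were rounded and fitted with edgeR 4.0.16 (R 4.3.3), with filterByExpr over the 4 groups, TMM, and a robust quasi-likelihood test over all 12 libraries (8 residual degrees of freedom). Calls needed a Benjamini-Hochberg adjusted p under 0.05 over 16537 genes. CPM are TMM-scaled. Levels were compared between genes by TPM, and CPM and counts only within a gene. The alternatives were DESeq2 1.42.0, limma 3.58.1 on log2(TPM + 1), DESeq2 size factors, library totals alone, other filters, offsets for transcript GC content and length, each line alone, a replicate block and leaving out each library. Same-numbered KO and WT libraries did not visibly deviate together (r between -0.11 and 0.083), so the main fit used no pairing. With so few libraries per group, this cannot show whether same-numbered libraries were handled together. The scripts were also run on simulated counts. These held no shift with gene length or GC content, so that run cannot show how calls fare under one.

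The members and gene lists were chosen with earlier results of these data known. Values per library are given for the 6 members highest by mean TPM, for the called members with the largest changes without overlap and a mean of at least 1 CPM (up to 6 per direction between KO and WT, up to 4 per sign elsewhere), and for the variants. From each list, genes among the 4 largest called changes per direction are named. Members named beyond this rule, namely HIST3H2A, HIST1H2AE, HIST1H4E, HIST2H2BE, HIST1H4I, HIST2H4A and HIST2H4B, were chosen after their values were seen. Intervals and floors cover counting error only.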

Additional observations from a re-analysis of the deposited data

Results flagged for a closer look

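For 35 of the 58 tested members the KO effect differed between the lines (HCC-LM3 effect minus Huh-7 effect on the log2 scale, edgeR, adjusted p under 0.05). By direction, 2 were positive and 33 negative, against 37.7% and 23.9% of all genes. Taken in either direction, the share was near that of all genes. With GC and length offsets 8 were positive and 8 negative, against 32.8% and 17.4% of all genes. It was positive for HIST1H3B (0.79) and HIST1H4I (2.88). Of the H1 genes, the difference was negative for HIST1H1B (-2.69), HIST1H1E (-1.77) and HIST1H1C (-1.09). Of the H2A genes, the difference was negative for HIST1H2AH (-2.86), HIST2H2AC (-2.41), HIST3H2A (-2.38), HIST1H2AI (-2.05), HIST1H2AE (-1.87), HIST2H2AA4 (-1.83), HIST1H2AG (-1.56) and HIST2H2AA3 (-1.48). Of the H2B genes, the difference was negative for HIST1H2BL (-2.25), HIST2H2BD (-1.39), HIST1H2BJ (-1.27), HIST1H2BH (-1.21), HIST1H2BN (-1.21), HIST1H2BG (-0.96), HIST1H2BD (-0.80) and HIST1H2BK (-0.50). Of the H3 genes, the difference was negative for HIST2H3A (-1.47), HIST2H3C (-1.47) and HIST1H3H (-0.93). HIST2H3A and HIST2H3C had equal counts in every library, so they are 1 signal counted as 2 genes. Of the H4 genes, the difference was negative for HIST1H4K (-2.91), HIST1H4C (-2.39), HIST1H4J (-2.05), HIST1H4B (-1.63), HIST2H4A (-0.93) and HIST1H4E (-0.88). Of the H2A variants, the difference was negative for H2AFY2 (-3.15), H2AFJ (-2.01), H2AFZ (-1.64), H2AFX (-1.52) and H2AFV (-0.32). With GC and length offsets, both positive differences kept their call, as did the negative ones of H2AFJ, H2AFX, H2AFZ, HIST1H2AG, HIST1H2BH, HIST1H2BN, HIST2H2BD and HIST3H2A, and those of H2AFV, HIST1H1C, HIST1H2BK and HIST2H4A were called with the opposite sign. HIST1H3B, H2AFJ and HIST3H2A were called with the same sign in all 21 alternatives.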

How the results depend on the processing

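Scaling and length decided most counts. With GC and length offsets, Huh-7 KO had 20 members higher and 11 lower, HCC-LM3 KO 7 and 2, and the difference between lines was positive for 8 and negative for 8; 12 genes of the 4 histone RNA pathway lists were lower in HCC-LM3 KO. Adding the replicate block to the offsets gave 20 and 11, 2 lower in HCC-LM3 KO, 9 and 8 for the difference, and 11 list genes lower. With library totals alone the values were 29 and 9, 7 and 4, 8 and 9, 8 higher between WT lines, and 6 and 8 list genes higher in Huh-7 and HCC-LM3 KO. On log2(TPM + 1) they were 9 and 14, 5 and 3, 14 and 3, 10, and 4 and 6. The block alone gave 2 lower in Huh-7 KO and 1 positive difference, and changed 1 of 56 named gene results. Without a filter on low counts 2 and 1 were lower in Huh-7 and HCC-LM3 KO, and with each line alone 2 in Huh-7. A single positive difference remained without that filter, with at least 1 CPM in 3 libraries, with DESeq2 size factors and by DESeq2 (1 each). Between WT lines, 2 replication-dependent genes were higher. Leaving out each library gave 1 to 2 lower in Huh-7 KO, 6 to 14 higher and 0 to 2 lower in HCC-LM3 KO, 1 to 2 positive differences, and 15 to 26 list genes lower in HCC-LM3 KO (15 without HCC-LM3 WT replicate 2 or KO replicate 3).

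Among the members chosen by the rule for named genes, directions turned in Huh-7 with the offsets for H2AFV (-0.97), H2AFY2 (-0.29), HIST1H2BK (-0.74), HIST1H4H (-1.07) and HIST2H2AA3 (-0.05), with the block added for H2AFV (-0.97), H2AFY2 (-0.29), HIST1H2BK (-0.74), HIST1H4H (-1.08) and HIST2H2AA3 (-0.05), and with library totals for H2AFV (-0.90), H2AFY2 (-0.73) and HIST1H4H (-0.52). On log2(TPM + 1) they turned for H2AFV (-0.70), H2AFX (-0.37), H2AFY2 (-1.15), H2AFZ (-0.19), HIST1H2AC (-0.52), HIST1H2BK (-0.32), HIST1H4H (-0.63), HIST1H2BJ in HCC-LM3 (-0.05) and the difference of H2AFY2 (1.11). Members not called with TMM also turned. H2AFY in Huh-7 was 0.43, and called, with DESeq2 size factors and by DESeq2, 0.03 with the stricter filter, 0.07 with the line alone and -0.10 to 0.11 without single libraries, and HIST1H2AD was 0.01, 0.07 and -2.65 to 0.15. H2AFY in HCC-LM3 was -0.12 with totals and with either offsets, -0.16 on log2(TPM + 1) and -0.03 to 0.08 without single libraries. There HIST1H1B ranged from -0.90 to 0.30, HIST1H2AH from -0.82 to 1.23, HIST1H4K from -1.42 to 0.84 and HIST2H2AC from -0.63 to 0.55. The cause was not tested. Members under about 20 counts per library in HCC-LM3 allow no firm direction there.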
